A study of Homo sapiens with 54 samples.

Results

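The cytosolic ribosomal protein genes were taken by symbol: every row named RPL or RPS followed by a number, with or without a final A or X, plus RPLP0, RPLP1, RPLP2 and RPSA. The rule found 77 genes among 25435 rows, 46 of the large (60S) subunit and 31 of the small (40S) subunit. They were followed in 54 total RNA libraries from 3 pairs of high-grade serous ovarian cancer lines, each pair from 1 patient, to ask how their share of the transcriptome and the balance of the 2 subunits differed between lines and with carboplatin. The platinum-sensitive lines were PEA1, PEO1 and PEO14, and their platinum-resistant partners were PEA2, PEO4 and PEO23. Each line was grown in RPMI1640 with 10% fetal bovine serum and was either untreated or held in 80 µM carboplatin for 8 h or for 24 h, with 3 replicates on separate days in each of the 18 groups. The treatment protocol gives the dose in µM and the design text in mM, and the untreated libraries are titled 0 h although the design text describes a vehicle control taken at 24 h.

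Replicates were repeat cultures of established lines, so the spread between them is that of culture and handling, not of patients. In every line the 8 h and 24 h libraries with the same replicate number came from the same passage, in 18 of 18 sets, while the untreated cultures of PEA1, PEA2, PEO1 and PEO4 were all of earlier passages than the treated ones, so passage and treatment cannot be told apart in those lines. In PEO14 and PEO23 the passage ranges of untreated and treated cultures overlapped, and the part of passage was not tested. PEA1 was at much later passages than PEA2. Values were TPM, estimated transcripts scaled to the same total in every library, which keep no sequencing depth, so the counting error behind a value is unknown. Between 12877 and 17133 genes were above 0 in 42 libraries and between 2678 and 11754 in 12 others, which were set aside from the main analysis. The set-aside libraries include all 3 untreated PEO23 libraries and 2 of the 3 untreated PEA1 libraries, and they left 1 library each in PEO4 and PEO14 at 24 h and 2 each in PEA2, PEO1 and PEO4 at 8 h. All 7 epithelial markers had a median above 0 in the 42 libraries, and ESR1 among the 6 Müllerian markers was at a median of 0. Of 6 leukocyte markers 4 were at a median of 0 (PTPRC, CD3E, LYZ and ITGAM), as were 4 of 6 endothelial ones (PECAM1, VWF, KDR and TEK) and 5 of 6 fibroblast ones, but the others were not: the summed TPM ranged from 1.89 to 141 for the leukocyte list, from 0 to 281.8 for the endothelial list and from 0 to 103.7 for the fibroblast list.

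Ribosomal proteins and ribosomal RNA build the 2 subunits in the nucleolus: the small subunit decodes mRNA and the large subunit forms peptide bonds. Many mRNAs of the translation machinery begin with a C followed by a run of pyrimidines, the 5′ terminal oligopyrimidine tract, through which their translation is known to respond to growth signalling by mTOR. When ribosome assembly is disturbed, RPL5 and RPL11, together with 5S ribosomal RNA, are known to bind MDM2, the ubiquitin ligase that keeps p53 low.

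The 30 bases around an annotated start show this opening in members that later separate in their response. Where a gene had several annotated starts, a start with the opening was printed if there was any. The windows hold 15 bases before the start and 15 from it on the gene's own strand, 5′ to 3′, from RefSeq on GRCh38.p14, and capitals mark the run of pyrimidines that begins with C at the start. RPS3A (chr4:151099613-151099642, plus strand), RPS13 (chr11:17077653-17077682, minus strand) and RPS27A (chr2:55232673-55232702, plus strand) are shown as members with some of the largest changes under carboplatin. RPS16 (chr19:39435935-39435964, minus strand), RPL28 (chr19:55385917-55385946, plus strand) and RPL3 (chr22:39319609-39319638, minus strand) are shown as members with small changes.
RPS3A: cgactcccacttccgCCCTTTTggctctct
RPS13: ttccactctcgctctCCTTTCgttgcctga
RPS27A: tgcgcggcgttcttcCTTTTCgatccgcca
RPS16: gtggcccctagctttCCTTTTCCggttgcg
RPL28: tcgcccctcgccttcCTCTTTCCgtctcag
RPL3: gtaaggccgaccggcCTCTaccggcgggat
RPS6 (chr9:19380222-19380251, minus strand), the S6 kinase substrate, and RPS24 (chr10:78033848-78033877, plus strand), one of the members of highest level, also carry long runs.
RPS6: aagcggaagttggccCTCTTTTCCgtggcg
RPS24: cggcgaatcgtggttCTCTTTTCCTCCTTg
The search was for a C at the first base of the transcript followed by at least 4 bases that are each C or T, on the gene's strand. Of the 77 members, 62 matched the RefSeq table by symbol, and 46 of them (74.2%) had an annotated start with this opening, against 5.14% of the 27305 symbols in that table. RPL3 was among those without it, its run ending after 4 bases. A match describes letters at an annotated start and does not show which start these cells used.

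The summed share of TPM in the 77 genes was higher under carboplatin than without it in every line that could be compared. In the 13 untreated libraries it lay between 7.54% and 14.5%, with a median of 12.1%. At 8 h it lay between 17.8% and 24.0% (median 19.7%, 15 libraries) and at 24 h between 14.7% and 24.9% (median 19.7%, 14 libraries). No untreated library reached the lowest treated one. TPM is scaled to transcript length, so the share is one of estimated transcripts and not of reads.

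Among untreated lines, PEO1 (13.5% ± 1.45, SD, n = 3) and PEA2 (13.4% ± 0.408, SD, n = 3) had the highest mean share, followed by PEA1 (12.1%, 1 library) and PEO14 (10.95% ± 1.65, SD, n = 3). PEO4 was lowest, at 9.30%, 7.54% and 9.59% in its 3 libraries, a mean of 8.81% ± 1.11 (SD, n = 3). The PEO4 libraries lay below all of the others, the closest being a PEO14 library at 9.68%. At 8 h the means were 19.1% ± 0.580 in PEA1 (SD, n = 3), 20.8% ± 2.42 in PEA2 (SD, n = 2), 23.7% ± 0.450 in PEO1 (SD, n = 2), 20.8% ± 0.600 in PEO4 (SD, n = 2), 21.2% ± 1.66 in PEO14 (SD, n = 3) and 18.5% ± 0.616 in PEO23 (SD, n = 3). At 24 h they were 19.2% ± 0.454 in PEA1 (SD, n = 3), 20.7% ± 0.872 in PEA2 (SD, n = 3), 23.3% ± 1.45 in PEO1 (SD, n = 3) and 17.3% ± 2.41 in PEO23 (SD, n = 3), with single libraries at 18.7% in PEO4 and 24.0% in PEO14. Under treatment PEO1 was thus near the top and PEO23 lowest at both times, while neighbouring lines such as PEA2, PEO4 and PEO14 at 8 h lay within the spread of their replicates.

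The ratio of the treated mean share to the untreated one at 8 h was 1.57 in PEA1, 1.55 in PEA2, 1.75 in PEO1, 1.93 in PEO14 and 2.37 in PEO4, the line that started lowest. At 24 h it was 1.58, 1.54, 1.72, 2.19 and 2.13 in the same order. Averaged over the 5 lines, the log2 change in the share was 0.86 at 8 h and 0.86 at 24 h, against an SD between replicates within groups of 0.125. The 2 times share the untreated libraries and are not independent of each other. The median number of these genes among the 100 most abundant of a library was 41 without treatment (22 to 46) and 54 with it (49 to 61).

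**Figure D1:**
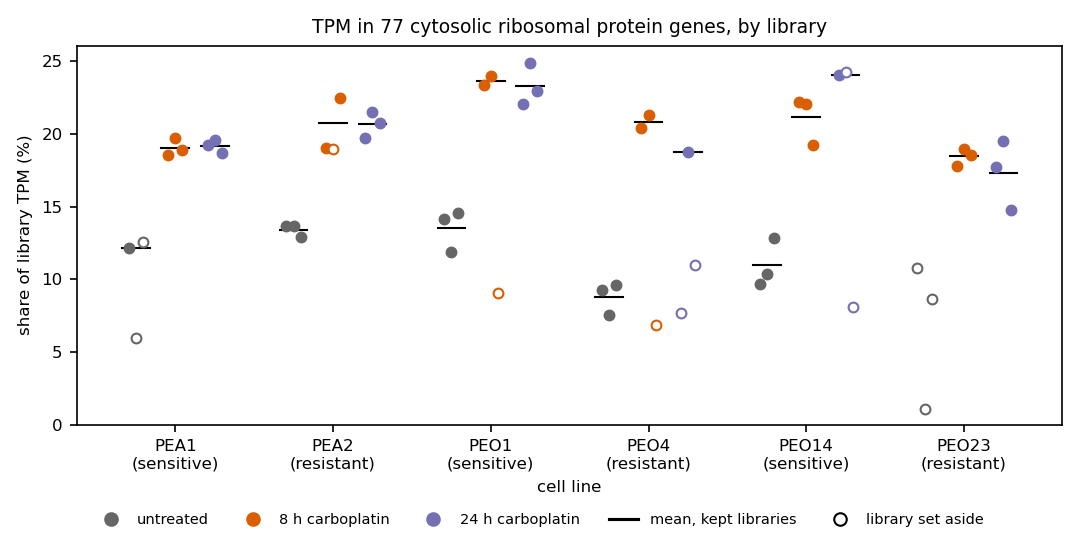
Percent of each library's summed TPM in the 77 cytosolic ribosomal protein genes (vertical axis) for the 6 lines and 3 times; each point is 1 library, horizontal lines are means of the kept libraries, and libraries set aside are open points. Kept untreated libraries lie at or below 14.5% and kept treated ones at or above 14.7%.

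Other values moved with the share. The first is small structural RNA, mostly RMRP and RPPH1, the RNA parts of 2 ribonucleases: 26 such genes held 7.55% to 20.5% of TPM in untreated libraries (median 11.7%), 9.35% to 45.4% at 8 h (median 22.0%) and 8.40% to 46.6% at 24 h (median 16.8%). RMRP and RPPH1 alone held 7.14% to 19.5% untreated and 7.91% to 45.6% treated. With the 26 genes taken out of the denominator the ribosomal protein share was 8.81% to 16.6% untreated and 20.9% to 41.9% treated. The second is library complexity: in the 12 libraries with few genes detected the share lay between 1.05% and 24.2%, and in the 7 treated ones among them between 6.89% and 24.2% with a median of 9.03%, inside the untreated range. With those libraries included, treated and untreated libraries overlapped in PEO1 and PEO4 at 8 h and in PEO4 and PEO14 at 24 h, and the mean log2 change of the share was 0.72 at 8 h and 0.68 at 24 h. The summed TPM of every marker list had a lower median under treatment, the ranges overlapping in each. Untreated and treated medians were 5742 and 3853 for 7 epithelial markers, 301.1 and 53.3 for 6 Müllerian, 53.1 and 2.40 for 6 endothelial, 57.9 and 17.9 for 6 leukocyte and 10.5 and 1.90 for 6 fibroblast markers. The part of any of these values in the size of the change was not tested, and fewer cells and less RNA per cell cannot be told apart in such bulk samples.

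The ratio of summed large subunit TPM to summed small subunit TPM moved far less than the share. It lay between 1.26 and 1.60 in untreated libraries (median 1.47), between 1.01 and 1.56 at 8 h (median 1.41) and between 1.24 and 1.52 at 24 h (median 1.38). Large subunit genes held 4.21% to 8.67% of TPM untreated and 8.89% to 14.3% treated, and small subunit genes 3.33% to 5.87% and 5.85% to 11.4%. The large subunit ranges did not overlap, and the small subunit ranges touched at their edges.

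PEO4 was the line with the lowest ratio before treatment, at 1.26, 1.27 and 1.34 (mean 1.29 ± 0.0462, SD, n = 3), below the PEO1 mean of 1.44 ± 0.0403 (SD, n = 3), the PEA2 mean of 1.49 ± 0.0244 (SD, n = 3) and the PEO14 mean of 1.50 ± 0.0907 (SD, n = 3), and below the single PEA1 library at 1.48. At 8 h it was lower still in PEO4, at 1.18 and 1.01. PEA1 stayed at 1.49 ± 0.0549 at 8 h (SD, n = 3) and 1.48 ± 0.0119 at 24 h (SD, n = 3). Treated and untreated ratios did not overlap in PEA2 at either time (1.36 ± 0.0723 at 8 h, SD, n = 2, and 1.38 ± 0.0675 at 24 h, SD, n = 3), in PEO4 at 8 h, or in PEO1 and PEO14 at 24 h (1.35 ± 0.00946, SD, n = 3, and 1.24, 1 library). In the other comparisons they overlapped or lacked an untreated library. The mean log2 change over the 5 lines was -0.12 at 8 h and -0.09 at 24 h. The SD between replicates was 0.0897, which is the spread of single libraries and not of this mean, and the change was not tested.

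The lowest ratios, 1.01 in PEO4 replicate 2 and 1.11 in PEO1 replicate 2 at 8 h, came from libraries with 38.9% and 42.7% structural RNA. The other kept libraries with over 30% were PEO14 replicate 1 at 24 h (30.4%, ratio 1.24) and libraries of PEO23. In PEO23 these were replicates 1 and 3 at 24 h (46.6%, 1.27, and 33.7%, 1.52) and at 8 h (40.8%, 1.43, and 45.4%, 1.34). The part of structural RNA in the ratio was not tested. The 8 h value depended on single replicates: the mean log2 change was -0.24 without replicate 1 and -0.068 without replicate 2. Weighting every gene equally, as the mean of log2(TPM + 1), also gave -0.24 at 8 h and -0.19 at 24 h, with the same sign.

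**Figure D2:**
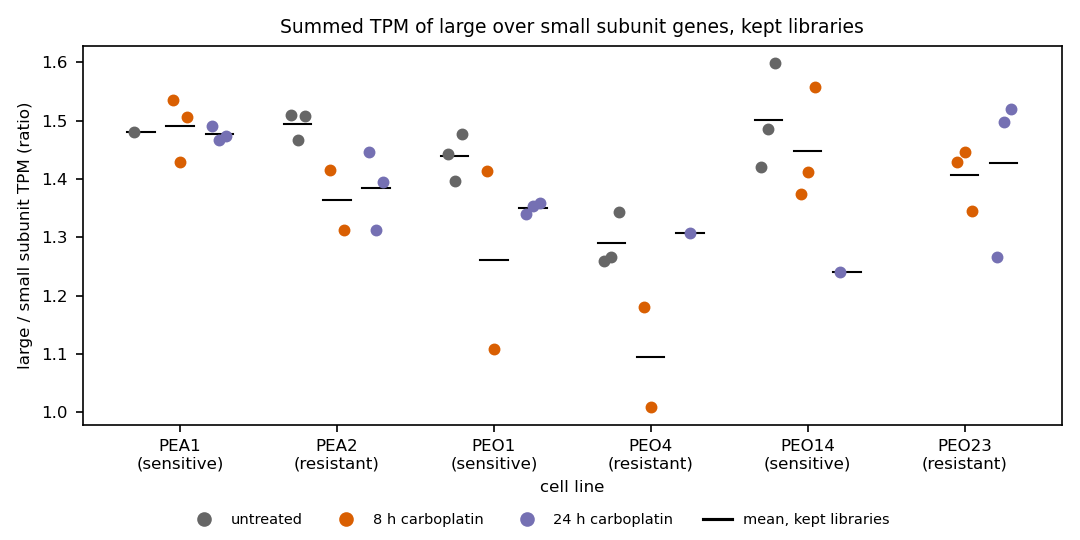
Ratio of summed TPM of the 46 large subunit genes to that of the 31 small subunit genes (vertical axis) for the 6 lines and 3 times; points are the 42 kept libraries and horizontal lines are group means. PEO4 has the lowest untreated values, 1.26 to 1.34, and PEA1 stays near 1.48 throughout.

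Changes of single genes were tested with limma on log2(TPM + 1) after the libraries were rescaled by the median ratio over 8287 genes above 0 in all 42, and p-values were adjusted over all 18013 genes tested, all 77 members among them. A gene was called at an adjusted p under 0.05. In the mean of 5 lines at 8 h against untreated, 76 of 77 members were higher and 0 lower, where 23.9% of all genes tested were higher and 39.7% lower. The median log2 change was 1.83 over the members, 1.75 for the large subunit and 2.14 for the small one, and -0.22 over all genes. All 46 large subunit genes and 30 of the 31 small subunit genes were called; the exception was RPS16. Many ribosomal protein genes have processed pseudogenes, and no source used here gives the way reads shared with those copies were assigned, so single values carry that uncertainty.

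In the large subunit, RPL5 and RPL11 rose by a log2 of 2.07 ± 0.18 (SE, limma adjusted p = 8.61e-11) and 1.63 ± 0.16 (SE, limma adjusted p = 3.96e-10). The rescaled TPM of RPL5 was 646 in the untreated PEA1 library and 1491, 1505 and 1410 at 8 h, and in PEO4 it was 296, 224 and 458 untreated and 2721 and 5648 at 8 h. The groups did not overlap in either line. RPL11 was at 756, 835 and 971 in untreated PEO1 and 2480 and 6389 at 8 h, and at 277, 379 and 409 in untreated PEO4 and 1588 and 2569 at 8 h.

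The 3 proteins of the stalk that recruits translation factors had changes of different size. RPLP0, its base, rose by 1.65 ± 0.17 (SE, limma adjusted p = 1.32e-09) and RPLP2 by 1.56 ± 0.16 (SE, limma adjusted p = 1.02e-09). RPLP1 rose by 0.94 ± 0.24 (SE, limma adjusted p = 0.000937). RPLP0 was at 950, 991 and 1027 in untreated PEO4 and 4694 and 7378 at 8 h, and at 470, 463 and 546 in untreated PEA2 and 895 and 983 at 8 h. RPLP1 lost its call with TPM as deposited, where its log2 change was -0.02. The difference between the 3 genes was not tested here.

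RPL39 and RPL41, very short proteins of the large subunit, rose by 2.42 ± 0.24 (SE) and 2.17 ± 0.23 (SE). RPL37A rose by 2.41 ± 0.23 (SE). RPL10, a late-joining protein needed before the subunits can pair, rose by 1.24 ± 0.14 (SE) and RPL22 by 1.12 ± 0.12 (SE); with TPM as deposited neither was called, at 0.28 and 0.16. RPL3, which lies near the peptidyl transferase centre, changed least among the large subunit genes at 0.65 ± 0.12 (SE, limma adjusted p = 2.93e-05). In untreated PEO1 RPL3 was at 966, 1028 and 684, and at 8 h at 1298 and 1664; in PEA2 it was at 705, 780 and 643 untreated and 996 and 799 at 8 h. Its groups did not overlap in these 2 lines, but the sign of its mean change turned to -0.31 with TPM as deposited and to -0.13 when the scaling left out structural RNA.

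RPL21 had the largest estimate, 3.66 ± 1.05 (SE, limma adjusted p = 0.00324), and the least certain one. It was listed at 0 in 5 of the 42 libraries: replicate 1 of PEA1 at 8 h, replicates 1 and 3 of untreated PEO1 and replicates 2 and 3 of untreated PEO4. In the remaining untreated library of PEO1 it was at 272, and at 8 h at 1838 and 9790. An exact 0 for a gene of every ribosome may be a failed estimate, and the call was lost without replicate 3. The other 76 members were above 0 in all 42 libraries.

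In the small subunit, RPS13 rose most among the genes never listed at 0, by a log2 of 3.25 ± 0.37 (SE, 9.51-fold, limma adjusted p = 8.31e-09). It was at 325 in the untreated PEA1 library and 919, 1216 and 1082 at 8 h; at 162, 156 and 209 in untreated PEO14 and 1657, 1146 and 506 at 8 h; and at 375, 181 and 741 in untreated PEO1 and 2923 and 12866 at 8 h. The treated values lay above the untreated ones in each of these lines. In PEO4 the untreated values spread from 9.43 to 282, and the 8 h values were 2891 and 7287.

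RPS3A, which lies where mRNA leaves the subunit, rose by 3.14 ± 0.26 (SE, 8.79-fold, limma adjusted p = 2.08e-11). Its untreated and 8 h values were 758 and 2060 to 3086 in PEA1, 598 to 655 and 1450 to 2837 in PEA2, and 374 to 447 and 1252 to 3385 in PEO14, with no overlap in any of them. RPS15A rose by 2.73 ± 0.27 (SE), RPS27A, which is made as a fusion with ubiquitin, by 2.71 ± 0.25 (SE), and RPS29 by 2.66 ± 0.27 (SE). RPS6, the protein phosphorylated by S6 kinases, rose by 2.43 ± 0.22 (SE, limma adjusted p = 1.00e-10), from 1393, 1269 and 1480 to 7089 and 26081 in PEO1 and from 800 to 1816, 1981 and 1818 in PEA1.

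RPSA, the protein once described as a laminin receptor, rose by 2.0 ± 0.19 (SE). RPS19, the gene most often mutated in Diamond-Blackfan anaemia, rose by 1.51 ± 0.22 (SE), and RPS3, at the mRNA entry channel, by 1.50 ± 0.22 (SE). RPS2, also at the entry channel, rose by only 0.50 ± 0.13 (SE, limma adjusted p = 0.00155) and was called in no single line at 8 h. RPS16, whose tail reaches the P site, was the 1 member not called, at 0.20 ± 0.38 (SE, limma adjusted p = 0.667). It was at 450, 530 and 391 in untreated PEO1 and 298 and 2493 at 8 h, and at 145, 294 and 184 in untreated PEA2 and 245 and 182 at 8 h. Treated libraries thus lay on both sides of the untreated ones. RPS24 was among the genes of highest level and rose from 3873, 2778 and 3152 to 10506 and 25876 in PEO1.

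**Figure D3:**
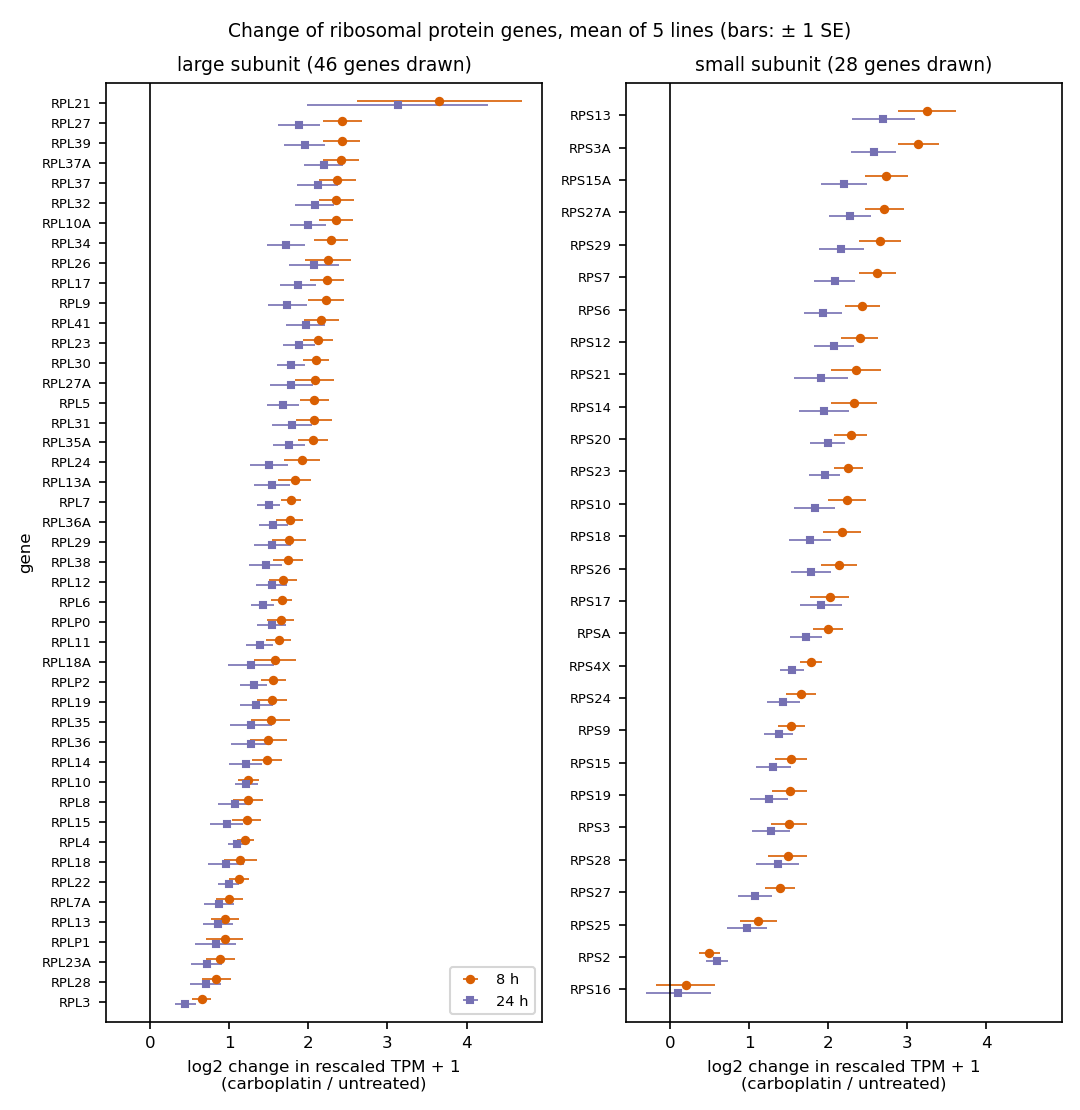
log2 change with its SE for 74 of the 77 genes at 8 h and at 24 h against untreated, mean of 5 lines, from limma on rescaled log2(TPM + 1); large and small subunit genes are in separate panels and colours mark the 2 times. Of the genes drawn, all but RPS16 are called higher at both times; RPL21 has the widest error and RPS13 and RPS3A lead the rest.

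The size of these changes depended on the scaling. With TPM as deposited, the median log2 change at 8 h was 0.87 over the members and -0.74 over all genes; 63 members were higher and 2 lower, where 6.97% of all genes were higher and 59.6% lower. The 2 lower genes were RPS16 (-0.77, limma adjusted p = 0.00986) and RPS2 (-0.47, limma adjusted p = 0.00315). At 24 h 66 members were higher and 0 lower on that scale (all genes 7.36% higher and 50.1% lower), with a median of 0.88 over the members and -0.58 over all genes. At 8 h 12 members were called in neither direction on that scale: RPL10 (0.28), RPL15 (0.26), RPL4 (0.24), RPL18 (0.18), RPL22 (0.16), RPS25 (0.15), RPL7A (0.04), RPL13 (-0.02), RPLP1 (-0.02), RPL23A (-0.08), RPL28 (-0.12) and RPL3 (-0.31). With all 54 libraries 68 members were called higher and 0 lower at 8 h (all genes 11.4% and 22.6%), and 46 higher and 0 lower at 24 h (all genes 7.85% and 24.3%).

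Genes of high level had larger changes than genes of low level, whether or not they encode ribosomal proteins. Level was the mean TPM over the 42 libraries, treated ones included. A gene that rose was thereby moved to a higher level, so part of this relation is built into the grouping. At 8 h the 165 other genes with a mean TPM of 500 or more had a median log2 change of 1.20 (quartiles 0.40 and 1.74), and the 69 members in that range a median of 1.92 (quartiles 1.53 and 2.29). From 100 to under 500 TPM the medians were 0.79 for 959 other genes and 1.18 for 8 members. Below 10 TPM the median of 9417 other genes was -0.36. At 24 h the medians at 500 TPM or more were 0.87 for the other genes and 1.58 for the members. Members were short, with GENCODE protein-coding transcripts of 359 to 1526 bases (median per gene). At 8 h the 1678 other genes under 750 bases had a median change of 0.08, and the 50 members of that length 2.09. These other genes were not matched to the members for level. Longer genes had lower changes: the median was -0.40 for the 3767 other genes of 3000 bases or more. The Spearman correlation of change with length was -0.224 over 14767 other genes and -0.154 over the 77 members. The part of level and length in the members' changes was not tested.

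A second fit centred each library on the mean log2(TPM + 1) of the 77 genes, so that it asks how members changed against each other. At 8 h 27 members were higher than that mean and 28 lower, where 1.05% of all genes were higher and 90.2% lower (median of all genes -1.63, since most fell against the ribosomal protein mean). The higher ones were 11 of 46 large subunit genes and 16 of 31 small subunit genes, and the lower ones 19 and 9. RPS13 led with a log2 change of 1.40 ± 0.30 (SE, limma adjusted p = 7.71e-05), followed by RPS3A at 1.28 ± 0.14 (SE, limma adjusted p = 4.75e-10), RPS15A at 0.88, RPS27A at 0.85 and RPS29 at 0.80. At the other end stood RPS16 at -1.66 ± 0.27 (SE, limma adjusted p = 1.01e-06), RPS2 at -1.36 ± 0.15 (SE, limma adjusted p = 7.25e-10), RPL3 at -1.20 ± 0.15 (SE), RPL28 at -1.02 and RPL23A at -0.97. RPL21, at 1.91, was not called (limma adjusted p = 0.0768). With all 54 libraries 8 were higher and 11 lower (all genes 0.257% and 64.6%).

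The pyrimidine opening shown above was found in all of these groups: 15 of the 23 members that were higher against the member mean and had an entry in the RefSeq table, in 19 of the 25 that were lower and in 12 of the 14 that were not called. RPS16 and RPL28, among the lowest, carried it, and RPL3 did not.

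At 24 h against untreated, a comparison that uses the same untreated libraries, 76 members were again higher and 0 lower (all genes 21.7% higher and 35.2% lower), with a median of 1.56 over the members (1.52 large, 1.78 small) and -0.19 over all genes. RPS16 was again not called (0.11 ± 0.41, SE, limma adjusted p = 0.839). Below RPL21 (3.13 ± 1.14, SE), RPS13 (2.69 ± 0.40, SE), RPS3A (2.58 ± 0.28, SE), RPS27A (2.28 ± 0.27, SE), RPS15A (2.20 ± 0.29, SE) and RPL37A (2.20 ± 0.25, SE) were highest. RPL5 stood at 1.68 ± 0.20 (SE), RPL11 at 1.38 ± 0.17 (SE), RPS6 at 1.93 ± 0.24 (SE) and RPSA at 1.72 ± 0.21 (SE), all called. RPLP0 stood at 1.53 ± 0.18 (SE), RPLP2 at 1.31 ± 0.17 (SE) and RPLP1 at 0.83 ± 0.26 (SE, limma adjusted p = 0.00706). RPL39 was at 1.95, RPL41 at 1.97, RPL10 at 1.22, RPL22 at 0.99, RPS3 at 1.28 and RPS19 at 1.25. RPL3, at 0.44 ± 0.13 (SE, limma adjusted p = 0.00522), and RPLP1 lost their calls without replicate 1 and without replicate 3, and RPL21 lost its call without replicate 2 and without replicate 3.

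Against the member mean, 21 genes were higher and 20 lower at 24 h (all genes 0.783% higher and 86.7% lower). The higher ones were 9 large and 12 small subunit genes, and the lower ones 14 and 6. RPS13 (1.12), RPS3A (1.00), RPS27A (0.70), RPS15A (0.63) and RPL37A (0.62) were highest, and RPS16 (-1.47), RPL3 (-1.13), RPS2 (-0.98), RPL28 (-0.87) and RPL23A (-0.86) lowest. The count of higher genes was 11 without replicate 1 and 13 without replicate 2, and RPL37A was not called without replicate 2. With all 54 libraries the RPS13 value was -0.05.

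Between 8 h and 24 h limma called 0 members in the mean of 6 lines (all genes 0.5% higher and 1.04% lower), with 0 higher and 10 lower at an unadjusted p under 0.05, and the median change of the members was -0.28. That result rested on replicate 1: without it 52 members were called lower at 24 h. The share of all genes called lower in that fit is not given here, so the count does not compare members with other genes. With the shared passage entered as a replicate block 1 member was lower. Against the member mean 0 members were higher and 0 lower (all genes 0.194% and 0.211%; 1 and 3 members at an unadjusted p under 0.05), and without replicate 1 there were 4 and 6.

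Within single lines the number of members called at 8 h was 75 in PEO1 (all genes 17.5% higher), 74 in PEO4 (21.6%), 69 in PEO14 (8.92%), 17 in PEA2 (3.54%) and 2 in PEA1 (0.6%). In each of these lines 0 members were lower, where 24.5%, 32%, 21.2%, 10.8% and 5.3% of all genes were. The median log2 changes were 2.63, 3.14, 1.54, 0.99 and 1.13 in the same order. PEA1 had 1 untreated library, whose spread was taken to be like that of the other groups. RPL4 and RPL7 were the 2 members called in all 5 lines, where 0.211% of all genes tested were higher in all 5. RPL4 was at 991 in untreated PEA1 and 1981, 2022 and 1877 at 8 h, and at 1150, 1165 and 1203 in untreated PEA2 and 1906 and 1950 at 8 h. These values show tight replicates and no overlap, although the mean change of RPL4, 1.20 ± 0.11 (SE), was below the median member and was 0.24 (limma adjusted p = 0.147) with TPM as deposited. RPS2 and RPS16 were called in no line at 8 h.

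At 24 h the counts were 73 in PEO14 (all genes 13.5% higher), 56 in PEO1 (15.7%), 56 in PEO4 (7.26%), 34 in PEA2 (4.77%) and 0 in PEA1 (0.788%), and 0 were lower (all genes 22.7%, 22.9%, 12.7%, 12.5% and 5.23%), with median changes of 2.59, 1.40, 1.79, 1.06 and 1.10. PEO4 and PEO14 each rested on 1 library at 24 h. Against 8 h, 20 members were lower in that PEO4 library and 0 higher (all genes 6.42% and 7.66%). The highest rescaled values at 8 h came from replicate 2 of PEO1 and of PEO4, the libraries with 42.7% and 38.9% structural RNA. A difference in the response between resistant and sensitive partners was tested for PEA2 against PEA1 and for PEO4 against PEO1 at both times, and limma called 0 members in all 4 tests, at either scaling. At an unadjusted p under 0.05, 0 members differed for PEA2 against PEA1 at either time, and 1 was higher and 0 lower for PEO4 against PEO1 at 8 h and 0 at 24 h after rescaling. Of all genes, 0.167% were higher and 0.172% lower for PEA2 against PEA1 at 8 h, 0.167% and 0.217% at 24 h, and for PEO4 against PEO1 0.749% and 1.63% at 8 h and 0.538% and 0.844% at 24 h. Against the member mean these were 0.2% and 0.228%, 0.211% and 0.283%, 0.316% and 3.62%, and 0.239% and 1.09%. After rescaling, 69 of 77 members had a positive estimate for PEO4 against PEO1 at 8 h (median 0.56, all genes -0.03). At 24 h 62 did (median 0.43, all genes 0). For PEA2 against PEA1 34 and 38 did, with medians of -0.13 and -0.006. Members share their libraries, so these counts carry no test. Untreated PEA1 and PEO4 at 24 h each rested on 1 library, so 0 calls do not show that the partners responded alike.

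Other genes of the translation machinery were taken from lists. FAU, which encodes a ribosomal protein fused to a ubiquitin-like protein, rose by 1.54 ± 0.21 (SE) at 8 h, and GNB2L1 (RACK1), a scaffold on the small subunit, by 1.07 ± 0.11 (SE). All 5 tested paralogs were called higher, RPL22L1 by 2.33, RPL26L1 by 2.29, RPL39L by 1.94, RPS27L by 1.41 and RPL7L1 by 0.24 (limma adjusted p = 0.048). RPL3L and RPL10L were below the filter on low values. Of 18 translation factors 15 were higher and 2 lower, led by EEF1B2 (2.51), EEF1A1 (2.31) and EIF3E (2.04), which are elongation and initiation factors. Of 7 noncoding hosts of small nucleolar RNAs whose transcripts are of the same pyrimidine class, 6 were higher and 0 lower, with SNHG5 at 2.77, ZFAS1 at 2.25 and SNHG8 at 2.19.

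Genes that make or regulate ribosomes were called in both directions, where 23.9% of all genes were higher and 39.7% lower at 8 h. Of 38 ribosome biogenesis genes 21 were higher and 11 lower at 8 h, with NOP10 (2.19) and NPM1 (1.69) up and TCOF1, a factor in ribosomal RNA transcription, at -1.69. RNA polymerase I and III genes gave 13 higher and 8 lower of 23 (TAF1C -1.88, POLR3C 1.71, GTF3A 1.71). Of 19 regulators in the mTOR and MYC pathways 6 were higher and 7 lower: LARP1, which binds pyrimidine-tract mRNAs, was at -1.80, MNT, a MYC antagonist, at -2.51, and the cap-binding EIF4E at 1.71. Small structural RNAs gave 12 higher and 2 lower of 21 (SNORA74A 3.05, SNORA53 2.83, SCARNA7 2.63). At 24 h FAU, GNB2L1 and the 5 paralogs were again all higher, and the counts higher and lower were 14 and 1 for translation factors, 6 and 0 for the noncoding hosts, 21 and 4 for biogenesis, 12 and 8 for the polymerases and 7 and 7 for the regulators, where 21.7% of all genes were higher and 35.2% lower. The regulators' shares were near those of all genes in the lower direction at both times.

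The members differed widely in level. The highest medians of rescaled TPM over the 42 libraries were 6580 for RPS24, 6480 for RPL37A, 5604 for RPS18, 5091 for RPL19 and 4968 for RPS25, and the lowest 287 for RPL27A, 288 for RPL22, 315 for RPL13, 339 for RPL10 and 340 for RPS16. TPM is a level per length, so these may be compared between genes, with the uncertainty of shared reads. In between stood RPL41 (3910), RPL39 (2866), RPS6 (2715), RPS19 (2274), RPLP0 (1637), RPL11 (1617), RPL5 (1517), RPS27A (1369), RPS3 (1327), RPLP2 (1091), RPL3 (957), RPLP1 (789) and RPSA (652). The 10 most abundant members held 29.9% to 49.8% of the ribosomal protein TPM of a library (median 32.9%).

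Lines under carboplatin differed in the composition of this set. Taken relative to the member mean, line means spanned 3.33 log2 units for RPL21, 2.31 for RPL37 (from -1.80 in PEO4 to 0.50 in PEA2), 2.2 for RPL8 (from -1.30 in PEA2 to 0.88 in PEO4), 2.08 for RPS20 (from -1.38 in PEO1 to 0.70 in PEO14), 1.78 for RPL34 and 1.77 for RPSA (from -1.78 in PEA2 to -0.02 in PEO1). RPL10A and RPL31 were among the steadiest, with spans of 0.23 and 0.40. Replicates within a group spread most for RPL21 (SD 2.71), RPS13 (0.77), RPS16 (0.67), RPS21 (0.44) and RPL26 (0.42). The spans of RPL37, RPL8 and RPS20 were above every one of these SDs except that of RPL21.

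**Figure D4:**
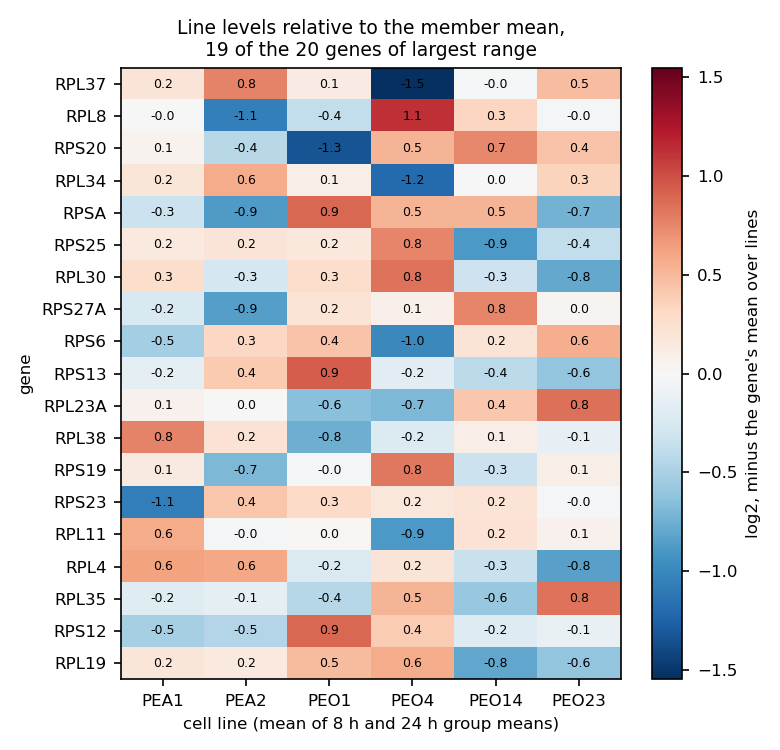
Level of 19 of the 20 members with the largest ranges, RPL21 left out, in each of the 6 lines under carboplatin: log2 units relative to the mean of the 77 genes, with each gene's mean over the lines subtracted. RPL37 and RPL34 are lowest in PEO4, RPL8 is highest in PEO4 and lowest in PEA2, and RPS20 is lowest in PEO1.

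PEO4 and PEO1 are a resistant and a sensitive line of 1 patient. Without carboplatin 22 members were lower in PEO4 (16 large and 6 small subunit genes) and 1 higher, where 13% of all genes were lower and 15.4% higher; the median was -0.64 over the members and 0 over all genes. RPL37 was at 372, 366 and 674 in untreated PEO1 and 96.2, 35.4 and 158 in untreated PEO4, a log2 difference of -2.45 ± 0.46 (SE, limma adjusted p = 0.000127). RPS6 was at 1393, 1269 and 1480 against 405, 270 and 316, a difference of -2.08 ± 0.42 (SE, limma adjusted p = 0.000351). RPS20, a protein of the subunit's head, went the other way, at 233, 214 and 241 in PEO1 and 604, 495 and 610 in PEO4, a difference of 1.30 ± 0.39 (SE, limma adjusted p = 0.0126). None of these 3 genes overlapped between the lines.

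RPS13 (-2.37), RPL23 (-1.89) and RPL34 (-1.82) were the other 3 of the 5 lowest in untreated PEO4. The count of lower genes was 7 without replicate 3, where RPS20 and RPL34 lost their calls, and RPS13 lost its call without replicate 1 and without replicate 2. The count was 44 with TPM as deposited and 0 with all 54 libraries. Relative to the member mean, 14 genes were higher and 18 lower (all genes 36.1% higher and 4.51% lower): RPS20 (1.94), RPL8 (1.30), RPLP1 (1.13), RPS25 (1.11) and RPL22 (1.05) stood highest, and RPL37 (-1.82), RPS13 (-1.74), RPS6 (-1.44), RPL23 (-1.25) and RPL34 (-1.18) lowest. The count of higher genes fell to 9 without replicate 1 and 8 without replicate 2, that of lower genes to 8 without replicate 1.

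Under carboplatin, over both times, 8 members were lower in PEO4 than in PEO1 and 2 higher, where 12.4% of all genes were lower and 13.2% higher. The members' share was thus near that of all genes in the lower direction (10.4%) and below it in the higher one (2.6%). RPL37 was again lowest, at 2381 and 7626 in PEO1 and 694 and 1901 in PEO4 at 8 h, and at 2064, 2294 and 1792 in PEO1 and 596 in the 1 PEO4 library at 24 h, a difference of -1.83 ± 0.43 (SE, limma adjusted p = 0.00176). RPS6 differed by -1.60 ± 0.39 (SE, limma adjusted p = 0.00284), RPL34 by -1.46, RPS4X, a small subunit gene on the X chromosome, by -1.36 ± 0.25 (SE, limma adjusted p = 0.000154) and RPL23 by -1.32. RPS20 differed by 1.70 ± 0.37 (SE, limma adjusted p = 0.000824), from 860 and 3221 in PEO1 to 4538 and 12943 in PEO4 at 8 h. RPL8, which lines the peptidyl transferase centre, differed by 1.36 ± 0.34 (SE, limma adjusted p = 0.00377), from 1456, 1361 and 1372 in PEO1 to 3828 in PEO4 at 24 h.

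This comparison rested on replicate 2, which supplied the only PEO4 library at 24 h: without it 0 members were lower and 1 was higher. With the replicate block 13 were lower. Relative to the member mean, 14 were higher and 13 lower (all genes 12.4% higher and 3.97% lower), led by RPS20 (1.86), RPL8 (1.51), RPLP1 (1.24), RPS28 (1.05) and RPL35 (0.97) above and RPL37 (-1.67), RPS6 (-1.44), RPL34 (-1.30), RPS4X (-1.20) and RPL23 (-1.17) below. Those counts were 2 and 1 without replicate 2 and 3 and 6 without replicate 1, the RPS28 value was -0.07 without replicate 2, and 8 were higher with the replicate block. RPL8 and RPL37 kept their calls against the member mean under every alternative tried. GNB2L1 was also lower in PEO4 (-0.56 ± 0.19, SE, limma adjusted p = 0.0309), as were RPL7L1 (-0.77) and RPL22L1 (-1.33).

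PEA2 and PEA1 differed in few members without carboplatin, where PEA1 had 1 library. RPS23, a protein of the decoding centre, was the only member called, at 50.9 in PEA1 and 205, 196 and 188 in PEA2, a difference of 1.92 ± 0.49 (SE, limma adjusted p = 0.00778); 0 were lower, and 6.32% of all genes were higher and 5.25% lower. Without replicate 2, 2 members were higher. Relative to the member mean 3 were higher and 2 lower (all genes 5.48% and 5.15%): RPS23 (1.82), RPL36 (1.17) and RPL31 (0.89) above, RPLP0 (-0.92) and RPL8 (-0.97) below. Of 5 tested endothelial markers, CDH5 and CLDN5 lay higher in PEA2 by 7.01 and 2.30 without carboplatin and by 6.92 and 1.13 with it. Without carboplatin KDR also lay higher in PEA2, by 1.07, while TEK was at 0.05 and VWF at 0. The 7 epithelial markers also lay higher in PEA2 without carboplatin, from 1.50 for KRT18 to 6.80 for KRT7. Of the Müllerian markers SOX17, MUC16 and MSLN lay higher in PEA2, by 5.54, 4.06 and 2.95. WT1 was at 0.01, ESR1 at 0 and PAX8 at -0.70. The fibroblast marker COL1A1 was at -2.6, with COL1A2 at 0.10 and LUM at 0. The part of these markers in the differences between the lines was not tested.

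Under carboplatin 5 members were higher in PEA2 and 3 lower, where 15.6% of all genes were higher and 13.6% lower, more than among the members. RPS23 was at 149, 173 and 132 in PEA1 and 375 and 551 in PEA2 at 8 h, and at 136, 140 and 128 against 390, 438 and 407 at 24 h, a difference of 1.60 ± 0.26 (SE, limma adjusted p = 1.42e-05). It kept this call in 10 of 11 alternatives, the exception being the fit of all 54 libraries. RPS15A (1.09 ± 0.39, SE), RPS6 (0.95 ± 0.31, SE, limma adjusted p = 0.0216), RPL36 (0.87) and RPL22 (0.76 ± 0.18, SE) were also higher. RPLP0 was at 1638, 2281 and 1658 in PEA1 and 895 and 983 in PEA2 at 8 h, and at 1858, 1655 and 2022 against 989, 1234 and 1180 at 24 h, a difference of -0.84 ± 0.24 (SE, limma adjusted p = 0.00863). RPL8 was at 1098, 1424 and 1093 against 556 and 501 at 8 h, a difference of -0.94 ± 0.28 (SE, limma adjusted p = 0.00886), and RPL7 differed by -0.53. RPS23, RPLP0 and RPL8 showed no overlap at either time.

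Without replicate 3 only RPS23 was still higher and 0 were lower, and without replicate 1 there were 3 higher. Relative to the member mean 11 were higher and 13 lower (all genes 11.3% and 12.7%), with RPS23 (1.50), RPS15A (0.99), RPS6 (0.85), RPL36 (0.77) and RPL22 (0.66) above and RPL8 (-1.04), RPLP0 (-0.94), RPS19 (-0.83) and RPL29 (-0.69) among those below. Those counts were 3 and 5 without replicate 1 and 5 and 8 without replicate 3. Among 38 ribosome biogenesis genes 2 were higher and 17 lower in PEA2, and the paralog RPS27L, a p53 target, was higher by 1.17 ± 0.40 (SE, limma adjusted p = 0.0253).

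PEO23 could be compared with PEO14 under carboplatin only. There 7 members were lower in PEO23 and 1 higher, where 7.88% of all genes were lower and 7.02% higher. RPSA was at 1549, 1297 and 950 in PEO14 and 1268, 711 and 960 in PEO23 at 8 h, and at 4017 in the 1 PEO14 library and 1833, 693 and 458 in PEO23 at 24 h, a difference of -1.32 ± 0.32 (SE, limma adjusted p = 0.00371). The 8 h values overlapped, so the difference rested on 24 h, and the call was lost without replicate 1. RPS2 differed by -1.06 ± 0.22 (SE, limma adjusted p = 0.000825), from 1984, 2626 and 2510 in PEO14 to 1120, 1085 and 1910 in PEO23 at 8 h, with no overlap. RPL35, near the exit of the peptide tunnel, was higher by 1.37 ± 0.40 (SE, limma adjusted p = 0.0194), at 3890, 4172 and 3817 in PEO14 and 23231, 7822 and 28893 in PEO23 at 8 h.

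RPL35A (-0.90), RPL7 (-0.83), RPLP2 (-0.76), RPL3 (-0.74) and RPL4 (-0.55) were the other lower genes. Leaving out replicate 1, which supplied the only PEO14 library at 24 h, gave 6 higher and 0 lower, and the RPL35A value was then 0.01. Without replicate 2 there were 7 higher and 3 lower, and without replicate 3 there were 0 higher and 2 lower. With the replicate block 2 were lower. Relative to the member mean 2 were higher and 5 lower (all genes 5.27% and 2.2%): RPL35 (1.43) among those above, and RPSA (-1.26), RPS2 (-1.0), RPL35A (-0.84), RPL7 (-0.77) and RPLP2 (-0.70) below. Those counts were 1 and 2 with the replicate block, 0 and 1 without replicate 1, 3 and 11 without replicate 2 and 1 and 2 without replicate 3. Of 38 ribosome biogenesis genes 0 were higher and 13 lower in PEO23.

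**Figure D5:**
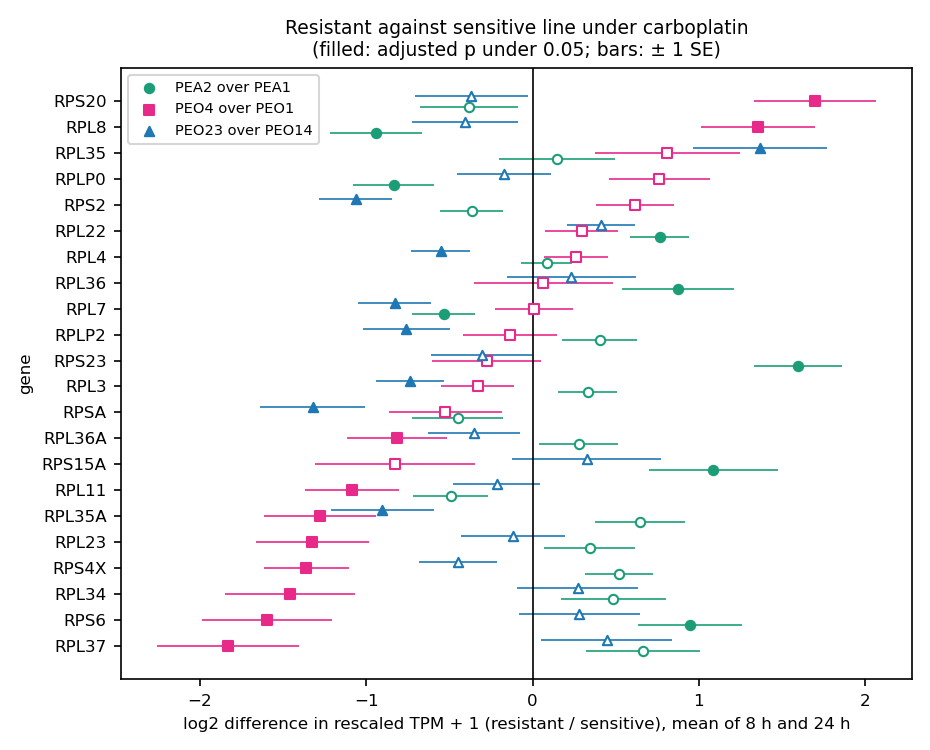
log2 difference with its SE between the resistant and the sensitive line of each of the 3 pairs under carboplatin, for 22 members named in the pair comparisons, from limma on rescaled log2(TPM + 1). Filled symbols are called: RPS23 is the highest in PEA2, RPS20 and RPL8 are the highest in PEO4, and RPL37 and RPS6 are the lowest in PEO4.

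Across the 17 groups with kept libraries, members followed the member mean with Spearman correlations of 0.515 to 0.988 (median 0.907, 65 of 77 over 0.8), a description that shares the scaling of each library and, for each gene, its own part in the mean. The 5 genes outside the set whose group means were most like the member mean were RNF7 (0.985), ABRACL (0.980), EMC3 (0.980), MRPL48 (0.978) and NTPCR (0.975), where the median over all genes tested was -0.11.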

How the data were processed

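RNA from 54 cultures was sequenced as stranded total RNA libraries, and per the submitters' processing notes bcl2fastq 2.18 and the build hg19 were used. The authors deposited 1 table of TPM values per gene and library, named for RSEM; how reads were aligned, annotated and shared among gene copies was not given in the sources used here. TPM sums to 1000000 in each library, so depth is unknown and no counting interval was given. Dates had replaced 28 symbols.

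Libraries with at least 12000 genes above 0 (42 of 54) were kept and rescaled by the median ratio over 8287 genes above 0 in all of them. Genes at 1 TPM or more in at least 3 libraries were tested with limma 3.58.1 (R 4.3.3, trended eBayes) on log2(TPM + 1), a scale that understates changes of low genes, with 1 mean per line and time in 1 fit over all groups and Benjamini-Hochberg adjustment over 18013 genes. A second fit centred each library on the mean of the members. Shares and the large to small ratio were computed from the deposited TPM and carry no test. The limma fit was tested on simulated data for the 8 h comparison over 16477 genes: 86 of 100 genes at a log2 change of 1 and 98 of 100 at 2 were recovered, with 9 false calls (4.66%). The simulated noise was independent between genes, few genes changed, and as many rose as fell. The simulation thus did not cover the choice of scaling or members moving together, and it gives no rate of false calls for the real comparison.

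Replicate numbers pair the 8 h and 24 h libraries of a line, since the labels give the same passage to both in 18 of 18 sets; deviations from group means correlated at -0.247 to 0.411 over 10 pairs, 2 of them over 0.1. A fit with that pairing as a replicate block was an alternative, besides all 54 libraries, TPM as deposited, a scaling without structural RNA, a pseudocount of 0.1, no filter, a fit of the compared groups only and leaving out each replicate. Leaving out 7 libraries with over 30% structural RNA and the tests of differences between pairs were added after seeing the data. The members, the gene lists and the tests were chosen with earlier results of these data known.

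Genes were named by rule: the 5 highest and 5 lowest by median level, up to 5 called members per direction with the largest change in each comparison and fit, the 6 with the largest and 3 with the smallest range over lines, the 5 with the largest replicate SD, a list of 15 genes with known roles, and the 3 largest called genes of each other list. Genes named where the rule does not reach, such as RPL4 and most of those in the tests between pairs, were chosen after their values were seen. Some genes that the rule names are not reported here. Start sites were read from RefSeq tables on GRCh38.p14, matched by symbol.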

Additional observations from a re-analysis of the deposited data

Results flagged for a closer look

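The difference between a resistant and a sensitive line under carboplatin was compared between the pairs with a limma contrast on rescaled log2(TPM + 1), adjusted over all 18013 genes. Any 2 of these contrasts share 1 pair, so they are not independent, and where PEO4 or PEO14 at 24 h enters, 1 library stands for that group. The genes below are those in which the contrast itself passed an adjusted p of 0.05. On this scale the share of members called was below that of all genes in every contrast and direction. Against the member mean this did not hold throughout. There PEA2 over PEA1 minus PEO4 over PEO1 gave 14 higher (18.2%) and 15 lower (19.5%), where 1610 and 3111 of 18013 genes were. PEA2 over PEA1 minus PEO23 over PEO14 gave 8 (10.4%) and 6 (7.79%), where 1062 and 1937 were. PEO4 over PEO1 minus PEO23 over PEO14 gave 8 (10.4%) and 6 (7.79%), where 806 and 564 were.

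PEA2 over PEA1 was above PEO4 over PEO1 in 11 members (14.3%, against 17.4% of all genes) and below it in 6 (7.79%, against 16% of all genes). The genes above were RPS6 by 2.54, RPL37 by 2.49, RPL34 by 1.95, RPL35A by 1.92, RPS15A by 1.91, RPS4X by 1.88, RPS23 by 1.87, RPL23 by 1.67, RPL27 by 1.56, RPL39 by 1.53 and RPL36A by 1.09 log2 units. The genes below were RPL8 at -2.30, RPS20 at -2.08, RPLP0 at -1.60, RPLP1 at -1.47, RPS19 at -1.41 and RPS2 at -0.98. The RPL37 difference (limma adjusted p = 0.000614) passed in all 10 alternatives, and those of RPL8 (limma adjusted p = 0.000134), RPS20 and RPLP0 in 9 of 10, the exception being all 54 libraries. RPS6, RPS4X, RPS23, RPL23, RPL34 and RPL35A lost the call without replicate 2, which holds the 1 PEO4 library at 24 h, and RPL27, RPL39, RPL36A and RPS15A without replicate 2 and without replicate 3. RPLP1, RPS19 and RPS2 lost it when any 1 replicate was left out.

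PEA2 over PEA1 was above PEO23 over PEO14 in 6 members (7.79%, against 12.1% of all genes) and below it in 0 (against 10% of all genes). The 6 were RPS23 by 1.90, RPL35A by 1.55, RPLP2 by 1.16, RPL3 by 1.07, RPS4X by 0.97 and RPL4 by 0.64 (limma adjusted p = 0.0495). All 6 lost the call without replicate 1, which holds the 1 PEO14 library at 24 h.

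PEO4 over PEO1 was above PEO23 over PEO14 in 4 members (5.19%, against 8.89% of all genes), RPS20 by 2.07, RPL8 by 1.76, RPS2 by 1.68 and RPL4 by 0.81. It was below in 3 (3.9%, against 8.19% of all genes), RPL37 at -2.28, RPS6 at -1.88 and RPL34 at -1.73. RPL37 passed in all 10 alternatives. RPS20, RPL8, RPS2 and RPL4 lost the call without replicate 1, and RPS6 and RPL34 without replicate 2 and without replicate 3.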

How the results depend on the processing

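With 1 alternative changed at a time, 76 or 75 members were higher at 8 h when a replicate was left out, and 68 to 75 at 24 h. Of 1516 values of named genes under the alternatives, 1204 kept their direction and side of the threshold, 302 lost the call and 10 changed sign. The signs that changed were RPLP1 at 8 h (-0.020), RPL3 at 8 h (-0.31) and RPL3 at 24 h (-0.23) with TPM as deposited; RPL3 at 8 h (-0.13) and 24 h (-0.13) without structural RNA; RPL35A in PEO23 against PEO14 without replicate 1 (0.0058, the range over replicates left out being -1.04 to 0.0058); with all 54 libraries RPL7 in PEO23 against PEO14 (0.0063), the RPL4 difference between PEO4 over PEO1 and PEO23 over PEO14 (-0.44) and RPS13 at 24 h against the member mean (-0.048); and RPS28 in PEO4 against PEO1 against the member mean without replicate 2 (-0.070, range -0.070 to 1.24). The cause of each was not tested.

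Counts of members called are given as higher and lower, with pairs under carboplatin unless said. The share of all genes called also moves with the setting and is not given beside each count. The counts in this section therefore show how far a call depends on the setting, not how members compare with other genes. TPM as deposited gave 2 lower at 8 h, 9 and 6 in PEA2 against PEA1 (3 and 2 untreated), 19 lower in PEO23 against PEO14, and 5 and 18 in PEO4 against PEO1 (44 lower untreated). Scaling without structural RNA gave 1 lower at 8 h, 10 and 9 in PEA2 against PEA1 (3 and 2 untreated), and 4 and 20 in PEO4 against PEO1 (44 lower untreated), and a share change of 1.04 at 8 h. All 54 libraries, whose scaling rests on 392 genes, gave 46 higher at 24 h, 0 and 0 in PEA2 against PEA1 (0 higher untreated) and in PEO23 against PEO14, 0 and 2 in PEO4 against PEO1 (0 and 0 untreated), and share changes of 0.72 and 0.68; against the member mean they gave 8 and 11 at 8 h, 9 and 8 at 24 h, 1 and 4 in PEO4 against PEO1 and 0 and 0 in the remaining pair comparisons. The compared groups alone gave 18 and 14 in PEA2 against PEA1, 0 and 0 in PEO23 against PEO14 and in PEO4 against PEO1, and 5 lower in PEO4 against PEO1 untreated. A pseudocount of 0.1 and no filter each left 1 higher in untreated PEA2 against the member mean. Without 7 libraries of over 30% structural RNA there were 12 and 10 in PEA2 against PEA1 (5 and 2 untreated), 3 lower in PEO23 against PEO14, 7 higher in PEO4 against PEO1 (2 and 41 untreated), and against the member mean 0 and 0 in PEO23 against PEO14 and 6 higher in PEO4 against PEO1. The large to small change was -0.24 and -0.19 as a mean of log2(TPM + 1), and -0.25 and -0.21 without the 5 members of highest level.

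The replicate block gave 1 lower at 24 h against 8 h, 2 lower in PEO23 against PEO14 and 13 lower in PEO4 against PEO1, and against the member mean 1 and 2 in PEO23 against PEO14 and 8 higher in PEO4 against PEO1; it moved no other count by over 1.5 times.

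Leaving out 1 replicate gave lowest to highest counts of 0 to 0 lower at both times, 0 to 52 lower and 0 to 0 higher at 24 h against 8 h, 0 to 1 higher and 7 to 19 lower in untreated PEO4 against PEO1, 1 to 2 higher and 0 to 8 lower under carboplatin, 1 to 5 higher and 0 to 4 lower in PEA2 against PEA1 (1 to 2 and 0 to 0 untreated), and 0 to 7 higher and 0 to 3 lower in PEO23 against PEO14. Against the member mean the ranges were 20 to 29 and 20 to 24 at 8 h, 11 to 23 and 19 to 21 at 24 h, 0 to 4 and 0 to 6 at 24 h against 8 h, 8 to 10 and 8 to 14 in untreated PEO4 against PEO1, 2 to 10 and 1 to 13 under carboplatin, 3 to 10 and 5 to 12 in PEA2 against PEA1 (2 to 2 and 2 to 2 untreated), and 0 to 3 and 1 to 11 in PEO23 against PEO14. The share change ranged from 0.79 to 0.95 at 8 h and from 0.75 to 0.91 at 24 h, and the large to small change from -0.24 to -0.068 and from -0.12 to -0.07. Without replicate 1 there is no untreated PEA1 library, so that pair gives no untreated value and means are over 4 lines; a lone library was assumed to vary like the other groups. Depth is unknown in TPM, so what it limits cannot be stated per gene.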

Other observations

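Genes of the mitochondrial ribosome, which translates the few proteins encoded in mitochondrial DNA, were looked at after the values above were seen. Of 81 tested, 70 were higher and 3 lower at 8 h against untreated, with a median log2 change of 1.36, and 70 were higher and 3 lower at 24 h, with a median of 1.16, where 23.9% and 21.7% of all genes were higher and 39.7% and 35.2% lower at the 2 times. In PEA2 against PEA1 under carboplatin 3 were higher and 18 lower (all genes 15.6% and 13.6%). RPL36AL, a gene of the cytosolic large subunit whose symbol falls outside the rule, rose by 1.99 ± 0.17 (SE, limma adjusted p = 3.10e-11) at 8 h and by 1.92 ± 0.18 (SE) at 24 h. In PEA2 against PEA1 under carboplatin it was at -0.77 ± 0.24 (SE, limma adjusted p = 0.0149).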
